A study of Rattus norvegicus with 6 samples.

Results

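The miR-17-92 and miR-106b-25 clusters were followed through small RNA libraries of rat liver. Their 9 members were rno-miR-17-5p, rno-miR-18a-5p, rno-miR-19a-3p, rno-miR-20a-5p, rno-miR-19b-3p and rno-miR-92a-3p of the first cluster, and rno-miR-106b-5p, rno-miR-93-5p and rno-miR-25-3p of the second, written below without the species prefix. A read was counted for a member when its first 18 bases were those of the mature miRNA, and the 9 members stood among 675 rat miRNAs with distinct first 18 bases, of which 365 had at least 1 read. Libraries were made from single rats, 3 with non-alcoholic fatty liver disease (NAFLD) and 3 normal. All were male Wistar rats, with an age of 4 months in the sample labels and a different age in the study's methods. The rats of the NAFLD group came from a high-glucose group that was first fasted and then fed a starch-rich diet, whereas the normal rats received a standard diet. Both diets were given without limit. The labels name no engineered allele. Livers with more triglyceride were selected for the NAFLD group, whereas the normal livers were drawn at random. The groups thus differ in the fast, the diet and this choice together, which cannot be told apart.

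A miRNA cluster is a run of hairpins in one primary transcript, which Drosha cuts into separate hairpins and Dicer trims into short duplexes. One strand of each duplex is loaded into an Argonaute protein, and its seed, the bases from position 2 to 8, pairs with target mRNAs. The miR-17-92 cluster is a known target of MYC and an oncogenic transcript, and the miR-106b-25 cluster is its paralog within the gene of MCM7, a subunit of the replicative helicase. Members of both clusters are known to repress the cell cycle inhibitor p21 and the proapoptotic protein BIM.

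In the RefSeq annotation of the GRCr8 assembly, the 6 mature miRNAs of miR-17-92 lay within 762 bp on the plus strand, at chr15:98587861-98588622. Those of miR-106b-25 lay within 472 bp on the minus strand, at chr12:22156652-22157123, inside the span of Mcm7. The paralogous miR-106a-363 cluster lay at chrX:137342788-137343637 on the minus strand and encodes the same mature miR-17-5p, miR-19b-3p and miR-92a-3p as miR-17-92, so the reads of these 3 members may come from either locus. The mature sequences are printed in the order of the hairpins, 5′ to 3′, with the seed in capitals, because the seed sorts the members into families across the clusters.
miR-17-5p: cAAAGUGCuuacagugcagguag
miR-18a-5p: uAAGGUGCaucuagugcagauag
miR-19a-3p: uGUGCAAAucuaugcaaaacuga
miR-20a-5p: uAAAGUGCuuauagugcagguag
miR-19b-3p: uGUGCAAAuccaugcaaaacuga
miR-92a-3p: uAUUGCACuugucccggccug
miR-106b-5p: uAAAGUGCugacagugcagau
miR-93-5p: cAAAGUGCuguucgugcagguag
miR-25-3p: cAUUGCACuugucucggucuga

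The seeds formed 4 families. The seed AAAGUGC was shared by 4 members of both clusters, miR-17-5p, miR-20a-5p, miR-106b-5p and miR-93-5p, whereas AAGGUGC occurred in miR-18a-5p alone. The seed GUGCAAA was shared by miR-19a-3p and miR-19b-3p, and AUUGCAC by miR-92a-3p and miR-25-3p, which are the last miRNAs of their clusters. Counted from 1 at the 5′ end, miR-20a-5p differed from miR-17-5p by C1U and C12U, miR-19b-3p from miR-19a-3p by U11C alone, and miR-25-3p from miR-92a-3p by U1C, C14U and C18U over the length of miR-92a-3p. All these differences lay outside the seed but inside the first 18 bases, so the reads of these pairs were told apart.

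The 6 libraries held 11601058 to 11880695 clean reads, and 1 read was worth 0.0842 to 0.0862 TPM, the reads scaled to 1000000 clean reads. The miRNAs took 77.3% ± 1.74 of the reads in NAFLD and 88.0% ± 2.90 in normal livers (SD, n = 3 here and below). The hepatocyte miRNA miR-122-5p alone held 456551 ± 10342 TPM in NAFLD and 581611 ± 18436 TPM in normal livers, which marks the tissue as liver. Summed markers of hepatocytes did not overlap between the groups, at 473951 to 481313 TPM against 582734 to 621503 TPM. Most of this sum is miR-122-5p itself, and the remainder, miR-192-5p and miR-194-5p together, overlapped. Summed markers of stellate or mesenchymal cells did not overlap either, at 404 to 446 TPM in NAFLD and 213 to 390 TPM in normal livers. Of these 3 markers, 0 were called by the edgeR test given below. The summed lists were not tested, and no background share was computed for them. Leukocyte, erythroid, endothelial, smooth muscle and bile duct markers overlapped, with 0 of the matched markers at 0 reads. In bulk liver, fewer cells of a type and less of a miRNA per cell cannot be told apart. The libraries NAFLD 2, NAFLD 3 and normal 2 stood apart by a higher rate of substituted bases, with a median over 50 abundant tags of 0.808% to 0.892% at read position 4 against 0.0431% to 0.046% in the other 3 libraries. This division crosses the groups unevenly.

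Together the 9 members held a small share of the liver's small RNA, 0.0263% to 0.0445% of the clean reads. Their summed level was 362.5 ± 42.1 TPM in NAFLD and 361 ± 91.99 TPM in normal livers. The lowest library was normal 2, at 263 TPM, and the highest was normal 1, at 445 TPM, so both extremes were normal livers. Normal 2 was also the library with the lowest summed leukocyte markers, at 3.96 TPM against 7.48 to 15.3 TPM in the NAFLD libraries. It was lowest in summed endothelial markers, at 14.7 TPM, and in stellate or mesenchymal markers, at 213 TPM. Erythroid, smooth muscle and bile duct markers were instead lowest in NAFLD 2, at 27.0, 128.4 and 0.765 TPM, and hepatocyte markers in NAFLD 1. The part of these cell types in the members' levels was not tested.

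Of the miR-106b-25 cluster, miR-25-3p was the most abundant member, ranked 29 among all miRNAs by mean TPM. It stood at 283, 236 and 283 TPM in NAFLD 1 to 3 and at 299.7, 184 and 294 TPM in normal 1 to 3. Normal 2 was the lowest, NAFLD 2 came next and the other 4 libraries lay close together, so the groups overlapped. The fold change of NAFLD over normal was 0.05 on the log2 scale, with an SE of 0.39 and a 95% interval of 0.574- to 1.86-fold (edgeR's quasi-likelihood test). It was 0.21 with the substitution division as a covariate and −0.15 without normal 2.
Upstream of it in the same transcript, miR-106b-5p stood at 11.9, 9.78 and 15.6 TPM in NAFLD and at 14.4, 7.41 and 11.8 TPM in normal livers. The middle member of the transcript, miR-93-5p, stood at 11.6, 9.52 and 14.98 TPM in NAFLD and at 13.1, 11.96 and 9.34 TPM in normal livers. Both were highest in NAFLD 3, and both overlapped between the groups. Their log2 fold changes were 0.15 (SE 0.40) for miR-106b-5p and 0.07 (SE 0.38) for miR-93-5p, and 0.31 and 0.039 with the covariate. Both turned negative without NAFLD 3, at −0.048 and −0.12, that of miR-106b-5p also without normal 2, at −0.078, and that of miR-93-5p also without normal 3, at −0.059, with TMM factors and by the full mature sequence.

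Of the miR-17-92 cluster, miR-92a-3p was the most abundant member, ranked 48. It stood at 61.3, 46.1 and 50.5 TPM in NAFLD and at 98.4, 47.1 and 43.9 TPM in normal livers. Only normal 1 lay far from the rest, and the groups overlapped. The log2 fold change of NAFLD over normal was −0.26 (SE 0.45) and became 0.21 without normal 1, so its direction rested on that library. With the covariate it was −0.090.
The seed-sharing pair miR-17-5p and miR-20a-5p followed at a lower level. The level of miR-17-5p was 8.10, 5.19 and 8.38 TPM in NAFLD and 6.75, 5.31 and 6.31 TPM in normal livers. That of miR-20a-5p was 7.50, 4.51 and 7.20 TPM in NAFLD and 6.83, 4.63 and 5.64 TPM in normal livers. Both were low in NAFLD 2 and normal 2, the libraries of lowest TMM factor, and both overlapped between the groups. Their log2 fold changes were 0.24 (SE 0.38) and 0.17 (SE 0.38), and 0.33 and 0.30 with the covariate.
The level of miR-19b-3p, known as the main oncogenic family of this cluster together with miR-19a-3p, was 5.17, 2.04 and 3.81 TPM in NAFLD and 5.48, 2.19 and 4.63 TPM in normal livers. NAFLD 2 and normal 2 again held the least, and the log2 fold change was −0.16 (SE 0.47). Its direction turned in 5 alternatives, to 0.030 by miRNA reads, 0.21 with the covariate, 0.13 without NAFLD 2, 0.11 without normal 1 and 0.12 with 1 substitution allowed.
Few reads carried miR-18a-5p, with 9, 7 and 3 in NAFLD 1 to 3 and 0, 3 and 6 in normal 1 to 3. Fewer still carried miR-19a-3p, with 1, 0 and 5 in NAFLD 1 to 3 and 1, 1 and 2 in normal 1 to 3. A count of 0 allows up to 3 reads, 0.253 to 0.255 TPM in these libraries. Both fell under edgeR's filter on low counts, and without that filter neither passed, with a smallest adjusted p of 0.995 over the 9 members.

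**Figure D1:**
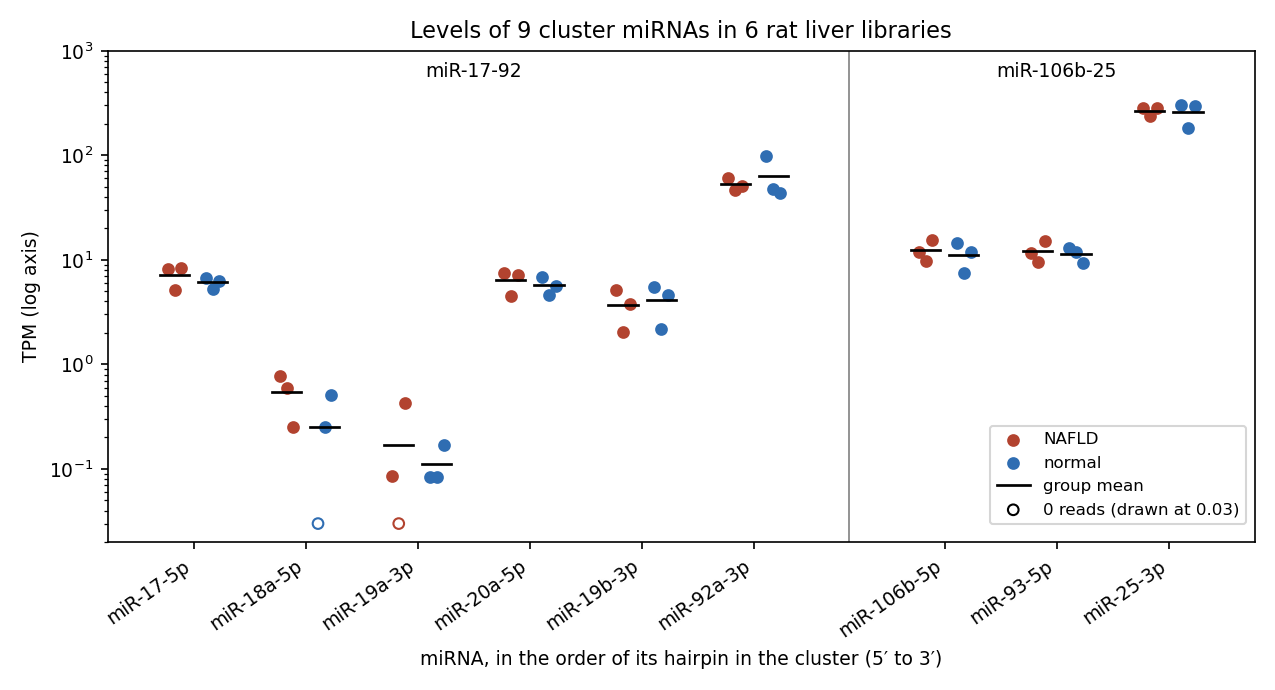
TPM of each member in each of the 6 libraries, on a log axis, in the order of the hairpins within a cluster; points are libraries, bars are group means, and open circles are libraries with 0 reads. The last miRNA of each cluster, miR-92a-3p and miR-25-3p, is the highest of its transcript in every library, and NAFLD and normal points overlap in each column.

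No member passed the test between NAFLD and normal livers. The TPM of all 9 overlapped between the groups, whereas 4.19% of the 167 miRNAs tested did not overlap. Across the whole table edgeR tested 167 miRNAs and called 1, which is 0.599%, at a Benjamini-Hochberg adjusted p under 0.05, namely miR-122-5p, lower in NAFLD by 0.35 on the log2 scale. Within edgeR, this call was lost under other scalings. With TMM factors edgeR called 0 of 167, with a smallest adjusted p of 0.065. With library size set to miRNA reads it called 0 of 166, with a smallest adjusted p of 0.15. Of the 9 members, 7 had enough reads for the test and 0 were called, with a smallest adjusted p of 0.986 from edgeR. At an unadjusted p under 0.05, 0 of the 7 passed, beside 3 of all 167 miRNAs (1.8%). DESeq2, which uses its own scaling and kept all 365 miRNAs with a read, called 1 (0.274%), lower in NAFLD, at an adjusted p under 0.05. At an unadjusted p under 0.05 it had 11 (3.01%), and in both cases 0 of the 9 members. The median log2 fold change was 0.07 over the 7 members and 0.02 over all miRNAs tested. The 95% intervals of the 7 members reached down to 0.422-fold and up to 2.08-fold, so changes of about that size could have been missed. With 3 libraries a group, these p-values set the group difference against the spread between single rats, which edgeR estimates with information from all miRNAs tested.

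**Figure D2:**
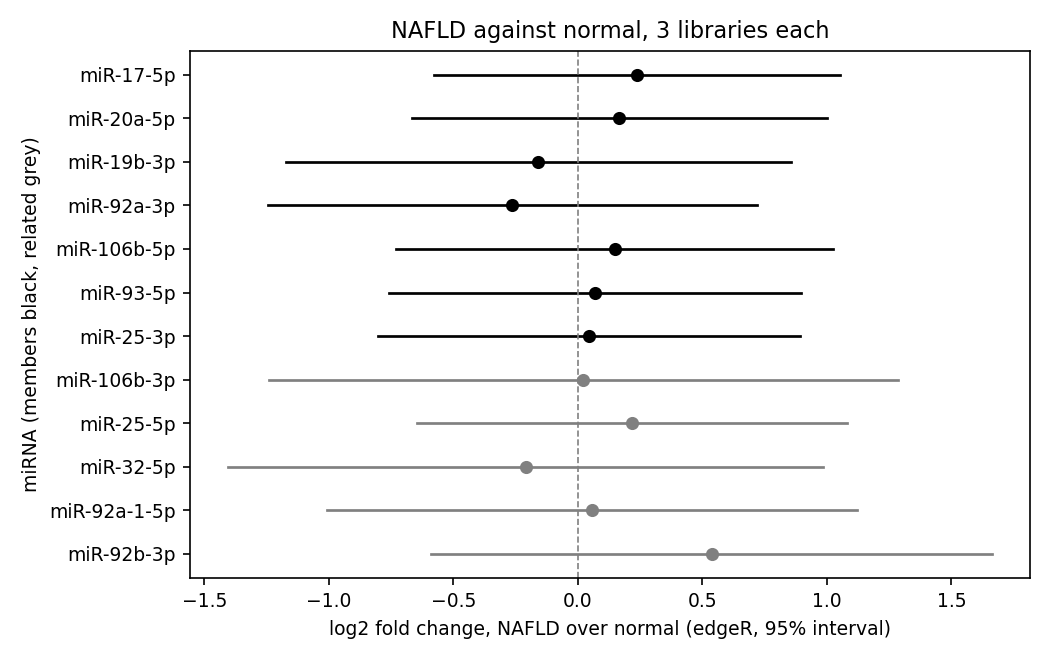
Log2 fold change of NAFLD over normal with its 95% interval from edgeR's quasi-likelihood test, for the 7 members tested (black) and 5 related miRNAs tested (grey). Every interval crosses 0.

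The other strands of the same hairpins and further miRNAs of these clusters and seeds, listed by name, ranged from 0 reads to a mean of 8.92 TPM. Of 18 related miRNAs, 15 had at least 1 read and 5 had enough for the test, of which 0 were called, 4 with a positive and 1 with a negative log2 fold change. The most abundant was miR-25-5p, the passenger strand of the miR-25 hairpin, ranked 91 and thus above all members of miR-17-92 but miR-92a-3p, at 11.4, 8.76 and 8.63 TPM in NAFLD and at 7.76, 5.56 and 11.4 TPM in normal livers. Its log2 fold change was 0.22 (SE 0.40). Of the miRNAs that share the seed AUUGCAC, miR-92b-3p had a mean of 1.10 TPM, with a log2 fold change of 0.54 (SE 0.52), and miR-32-5p had a mean of 0.890 TPM, with a log2 fold change of −0.21 (SE 0.55). The X-linked miR-363-3p, of the same seed, had 35 reads in all, and miR-20b-5p, a relative of miR-17-5p in the X-linked cluster, had 4. Among the miRNAs listed for these seeds, most reads were thus those of the 9 members. The other miRNAs were not searched for these seeds.

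The members of a transcript differed widely in level. In miR-106b-25, miR-25-3p made up 90.3% to 93.3% of the cluster's reads in the 6 libraries, and miR-106b-5p and miR-93-5p took 2.96% to 5.89% each. In miR-17-92, miR-92a-3p made up 71.5% to 83.7%, miR-17-5p 5.74% to 11.9%, miR-20a-5p 5.81% to 10.2% and miR-19b-3p 3.49% to 7.57%. The reads of miR-18a-5p never exceeded 1.02% of the cluster and those of miR-19a-3p never exceeded 0.600%. Over all libraries, 4096 reads of miR-92a-3p stood against 10 of miR-19a-3p, a ratio of 410 with a 95% counting interval of 222 to 855. The pair that differs by a single base, miR-19b-3p and miR-19a-3p, stood at 275 against 10 reads, a ratio of 27.5 (14.7 to 58.0). Reads count miRNAs of like length, but how readily each sequence enters a library and how much of it the liver holds cannot be told apart here. Such intervals hold counting error alone, because several reads can be copies of 1 amplified molecule.

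Ordered by level, the members fell into steps. The first step was from miR-25-3p to miR-92a-3p, with a mean log2 ratio of 2.23 ± 0.40 (SD, n = 6 libraries), and the second from miR-92a-3p to miR-106b-5p, at 2.27 ± 0.42, and each held in 6 of 6 libraries. Next, miR-106b-5p and miR-93-5p did not differ beyond their spread, at −0.01 ± 0.35. Here miR-106b-5p was higher in 5 of 6 libraries, and without normal 2 the mean log2 ratio was 0.12. The step from miR-93-5p to miR-17-5p was 0.82 ± 0.25 and held in 6 of 6 libraries. The neighbours miR-17-5p and miR-20a-5p lay only 0.14 ± 0.09 apart, with miR-17-5p higher in 5 of 6 libraries. The step from miR-20a-5p to miR-19b-3p was 0.71 ± 0.38, and the largest step, from miR-19b-3p to miR-18a-5p, was 3.52 ± 1.84, with 0 reads of miR-18a-5p in normal 1, and both held in 6 of 6 libraries. Last, miR-18a-5p and miR-19a-3p did not differ beyond their spread, at 1.16 ± 2.03. The order depends on which reads count: by full mature sequences alone, the step from miR-92a-3p to miR-106b-5p turned to −1.63, that from miR-25-3p to miR-92a-3p became 7.49 and that from miR-106b-5p to miR-93-5p became −0.91.

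The uneven levels within a transcript did not differ detectably between the groups. In miR-106b-25, the SD of the log2 TPM over its 3 members was 2.58 ± 0.13 in NAFLD and 2.61 ± 0.148 in normal livers (two-sided exact permutation test, p = 0.9). In miR-17-92, it was 1.71 ± 0.183 in NAFLD and 1.79 ± 0.252 in normal livers over the 4 members with reads in every library (exact permutation, p = 0.9). Over all 6 members it was 3.08 ± 0.303 and 3.34 ± 0.733 (exact permutation, p = 0.7). With 3 libraries against 3, the exact test cannot give a p below 0.1.

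The balance between the clusters did not pass the test either. The summed level of miR-17-92 was 82.9, 58.4 and 70.5 TPM in NAFLD and 117.5, 59.6 and 61.2 TPM in normal livers (exact permutation on log2 TPM, p = 0.8). The summed level of miR-106b-25 was 307, 256 and 314 TPM in NAFLD and 327, 203 and 315 TPM in normal livers (exact permutation, p = 1). The miR-106b-25 sum exceeded that of miR-17-92 in every library, by 4.17 ± 0.414-fold in NAFLD and 3.78 ± 1.23-fold in normal livers (exact permutation on the log2 ratio, p = 0.6). The normal libraries held both the lowest ratio, 2.78 in normal 1, and the highest, 5.15 in normal 3.
Pairs that share a seed were compared within libraries, where the scaling to total reads has no part. The miR-25-3p to miR-92a-3p ratio was 4.62, 5.13 and 5.61 in NAFLD and 3.05, 3.90 and 6.70 in normal livers, a difference of 0.25 on the log2 scale (exact permutation, p = 0.6). The miR-93-5p to miR-17-5p log2 ratio was 0.74 ± 0.20 in NAFLD and 0.89 ± 0.31 in normal livers (exact permutation, p = 0.4). That of miR-20a-5p to miR-17-5p was −0.18 ± 0.06 and −0.11 ± 0.11 (exact permutation, p = 0.5), and that of miR-106b-5p to miR-17-5p was 0.78 ± 0.20 and 0.82 ± 0.31 (exact permutation, p = 0.9). The last of these ratios was positive in every library, from 0.48 to 1.09. Its NAFLD minus normal difference was −0.44 within the libraries of lower substitution rate and 0.42 within those of higher rate. The first set holds NAFLD 1 as its only NAFLD library, and the second holds normal 2 as its only normal library.
By seed, the members with AUUGCAC summed to 320 ± 33.1 TPM in NAFLD and 322 ± 84.8 TPM in normal livers. The members with AAAGUGC summed to 38.1 ± 8.61 and 34.5 ± 6.01 TPM, and those with GUGCAAA to 3.84 ± 1.64 and 4.21 ± 1.72 TPM. Each seed sum overlapped between the groups.

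**Figure D3:**
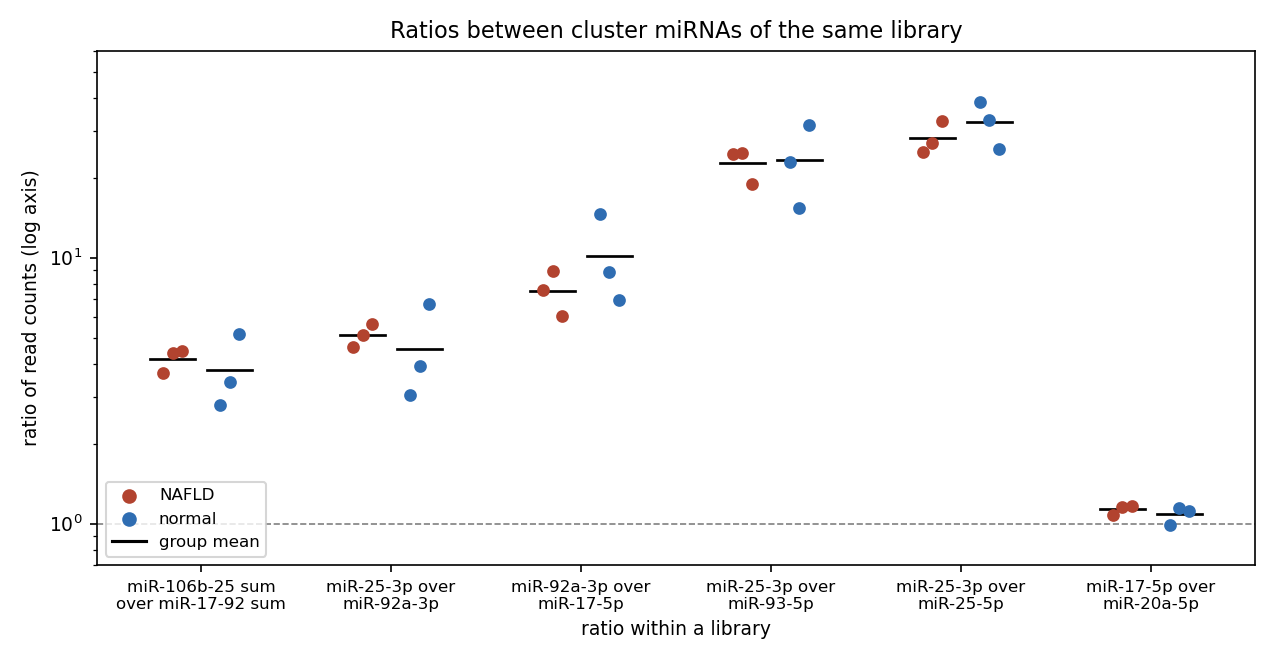
Ratios of read counts within each library, on a log axis, for the cluster sums, for members of a cluster, for seed-sharing members and for the arms of the miR-25 hairpin; points are libraries and bars are group means. The miR-17-5p to miR-20a-5p ratio lies near 1 with little spread, and NAFLD and normal points overlap for every ratio shown.

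The strand that accumulated was the 5p strand in the hairpins of the miR-17 and miR-18 families and the 3p strand in those of the miR-19 and miR-92 families. For the miR-25 hairpin, 18637 reads of the 3p strand stood against 631 of the 5p strand, a ratio of 29.5 with a counting interval of 27.3 to 32.02. By library the ratio was 24.9, 27.0 and 32.8 in NAFLD and 38.6, 33.0 and 25.7 in normal livers, which overlapped (exact permutation, p = 0.4). The miR-106b hairpin was the least one-sided of miR-106b-25, with a pooled ratio of the 5p to the 3p strand of 6.63 (5.50 to 8.07). Its balance varied between libraries. The 5p strand had 138, 115 and 184 reads in NAFLD and 171, 88 and 140 in normal livers. The 3p strand had 38, 12 and 13 reads in NAFLD and 27, 8 and 28 in normal livers. The miR-93 hairpin gave 831 reads of the 5p strand and 2 of the 3p strand. In miR-17-92, the pooled strand ratio was 17.5 (11.9 to 26.8) for miR-17-5p over miR-17-1-3p, 71.3 (32.5 to 195) for miR-20a-5p over miR-20a-3p, and 54.6 (43.5 to 69.6) for miR-92a-3p over miR-92a-1-5p. All these intervals hold counting error of the pooled reads alone and leave out the spread between rats.
The passenger strands differ between the loci that encode the same guide. They are printed with the seed in capitals, because their reads can be told apart where those of the guides cannot.
miR-17-1-3p: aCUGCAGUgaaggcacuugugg
miR-17-2-3p: aCUGCACUgcaagcacuucuuac
miR-92a-1-5p: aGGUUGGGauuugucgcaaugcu
miR-92a-2-5p: aGGUGGGGauuagugccauuac
The chromosome 15 strand miR-92a-1-5p had 75 reads and its X-linked counterpart miR-92a-2-5p had 0, which allows up to 3 reads. Of the miR-17 hairpins, the chromosome 15 strand miR-17-1-3p had 27 reads and the X-linked miR-17-2-3p had 10. Reads of the passenger strands therefore came from both loci for miR-17 and were seen from chromosome 15 alone for miR-92a, whereas the origin of the guide reads was not tested.

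The 3′ ends of the members were not uniform. Over pooled reads, of the 7 members with enough reads only miR-92a-3p had a leading form other than the database sequence. In single libraries this varied. For miR-106b-5p, the form with a further A led in NAFLD 1, at 3.62 against 3.02 TPM, and in normal 3, at 4.04 against 2.61 TPM. For miR-19b-3p, the 22 nt form led in NAFLD 2, at 0.680 against 0.510 TPM. In their other libraries the database form of both led. In miR-25-3p, 77.1% of the reads were the database sequence exactly, and in miR-93-5p 55.4%, in miR-17-5p 49.6%, in miR-19b-3p 38.9%, in miR-20a-5p 32.01% and in miR-106b-5p 30.02%. In miR-92a-3p only 1.90% were. The leading forms are printed as DNA with the bases beyond the database sequence in capitals, because they show how the ends of the AUUGCAC pair differ.
miR-92a-3p, first form: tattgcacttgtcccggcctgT
miR-92a-3p, second form: tattgcacttgtcccggcctgTT
miR-25-3p, first form: cattgcacttgtctcggtctga
miR-25-3p, second form: cattgcacttgtctcggtctgT
miR-25-3p, short form: cattgcacttgtctcggtctg
The first form of miR-92a-3p made up 70.0% of its reads, with a mean of 40.5 TPM, and the second 6.27%. The added T is the next base of the Mir92a1 hairpin on chromosome 15, and 92.2% of the miR-92a-3p reads carried it, with 89.3% to 94.3% in single libraries. The next base of the X-linked Mir92a2 hairpin is A, which 1.42% carried. A base can also be added to a miRNA after cutting, so this does not assign a read to a locus.
For miR-25-3p, the first form is the database sequence, the second, whose capital marks an end base that is not in the hairpin, made up 9.52%, and the short form, which lacks the last base, made up 8.41%. Over the reads of miR-25-3p with 1 to 3 end bases not in the hairpin, the last base was T in 84.7%, whereas it was A in 65.0% for miR-17-5p, 70.6% for miR-20a-5p and 66.8% for miR-93-5p. In miR-19b-3p it was T in 82.2%. Of such end bases, the members with the seed AAAGUGC that could be classed thus carried mostly A, and miR-25-3p and miR-19b-3p mostly T, whereas miR-92a-3p, with the seed of miR-25-3p, carried A in 46.6% and T in 49.9%.

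**Figure D4:**
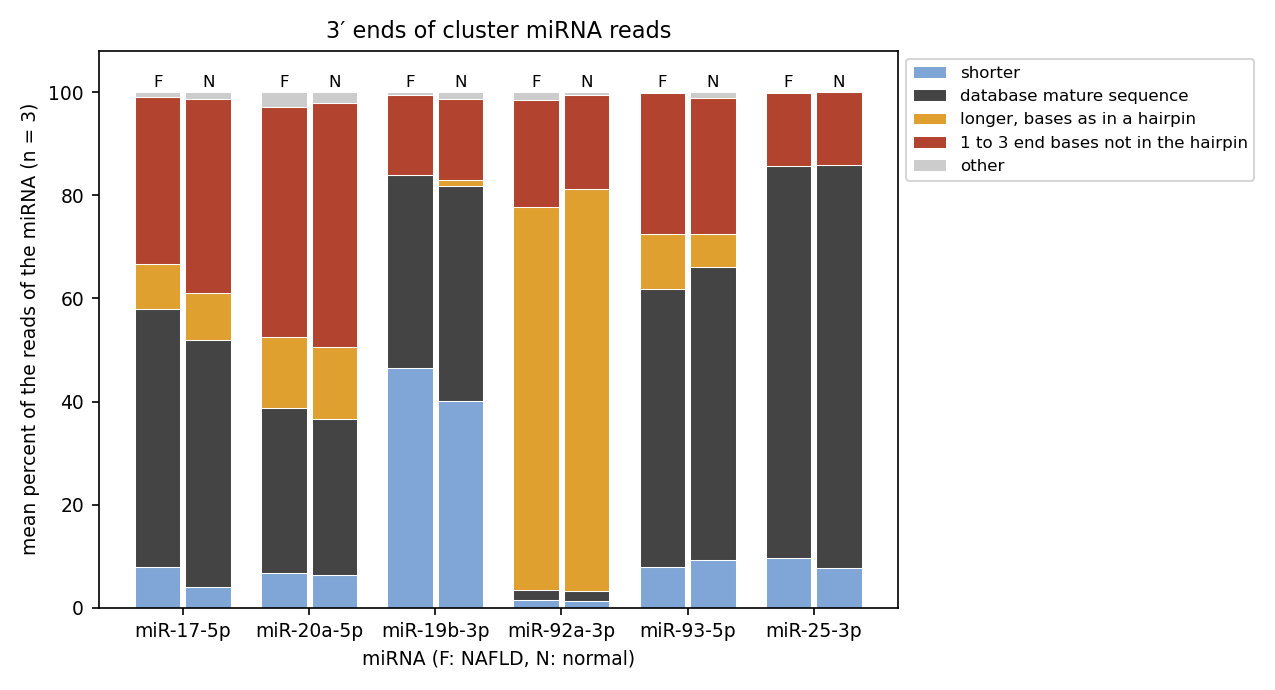
Mean percent of the reads of 6 members in each 3′ end class, in NAFLD (F) and normal (N) livers, n = 3 libraries each; the hairpin of miR-106b-5p is not shown because its sequence was not at hand. Most reads of miR-92a-3p are longer than the database sequence by bases of its hairpin, whereas those of miR-25-3p are mostly the database sequence.

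Between the groups, the shares of the end forms mostly overlapped. The share of reads that were the database sequence exactly overlapped for all 7 members tested, where 15.3% of 137 miRNAs did not overlap. For reads shorter than the database sequence, 1 of the 7 did not overlap, against 9.49% of the 137 miRNAs, or 8.03% in the direction of more short reads in NAFLD. This was miR-25-3p, with 10.7%, 8.92% and 9.18% shorter reads in NAFLD and 8.81%, 6.01% and 8.12% in normal livers. NAFLD 2, the lowest of its group, lay only just above normal 1, the highest of the other (exact permutation, p = 0.1, the smallest p possible). Its mean read length was 21.93 nt in NAFLD and 21.96 nt in normal livers and did not overlap either, beside 16.1% of the 137 miRNAs, or 10.2% in that direction. The small class of other ends of miR-92a-3p, with 41 reads in all, made up 1.57% ± 0.521 in NAFLD and 0.577% ± 0.172 in normal livers without overlap (exact permutation, p = 0.1), and no background share was computed for that class. With 7 members and these background shares, 1 member not overlapping in a measure is no result about the clusters.

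Substituted reads touched the seed of the AUUGCAC pair. Reads of miR-25-3p with a substitution at position 3, inside the seed, made up 10.2% to 11.0% of its reads in NAFLD 2, NAFLD 3 and normal 2 and 0% to 0.113% in the other 3 libraries, and the most frequent was T3G. In miR-92a-3p they made up 7.86% to 11.7% and 0% to 0.269%, again most often as T3G, with the base of the mature sequence first and positions counted from the 5′ end. The 3 other miRNAs with T at that position and at least 1000 reads in every library, miR-194-5p, miR-30a-5p and miR-378a-3p, showed the same division, with means of 8.52% to 14.04% over the first 3 libraries and of at most 0.0421% over the others. In the first 3 libraries the median was 0.696% over 13 such miRNAs with A at position 3, 1.22% over 9 with C and 3.61% over 7 with G. The division was thus also seen outside the clusters. These reads were not counted for a member, and allowing 1 substitution raised the mean of miR-25-3p from 263 to 281 TPM and that of miR-92a-3p from 57.9 to 61.8 TPM.

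The miRNAs whose level moved most like the clusters across the 6 libraries were named by the root mean square difference of centred log2(TPM + 1) over 83 miRNAs with a mean of at least 10 TPM. For the miR-17-92 sum they were miR-365-3p, at 0.10, miR-139-5p, at 0.18, and miR-146a-5p, at 0.23, beside a median of 0.41. For the miR-106b-25 sum they were miR-28-3p, at 0.10, miR-193a-3p, at 0.11, and miR-342-3p, at 0.12, beside a median of 0.30. The 6 points share their library depth and its scaling, and the values are a description.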

How the data were processed

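Small RNA of 6 rat livers was analysed, in the groups of the sample labels. The authors gel-purified and sequenced small RNA, removed low-quality reads, adapter products and short reads, and collapsed the rest into tags, distinct read sequences, whose counts they deposited per library. The deposited counts were neither normalized nor filtered for a genome match, and the authors' log gives the read count of each cleaning step.

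Tags were matched by their first 18 bases to the mature rat miRNAs of RefSeq (GRCr8), all 9 members included, and summed. The members and lists were chosen with earlier results of these data known. TPM is reads divided by total clean reads, times 1000000. The main test on counts was that of edgeR 4.0.16, run in R 4.3.3 (glmQLFit, glmQLFTest, filterByExpr, library size of total clean reads, Benjamini-Hochberg adjustment over all miRNAs tested, threshold 0.05). The SE of a log2 fold change is its size over the root of its F statistic. DESeq2 1.42.0 and limma 3.58.1 were alternatives. Ratios, sums and read ends were compared by two-sided exact permutation of libraries. For log2 ratios between single members and SDs over members, 0.5 reads were added to every count. The remaining work was done with matplotlib 3.10.9, scipy 1.17.1, numpy 2.4.6 and pandas 2.3.3 under Python 3.11.15. All 9 members were named, with the other strands, the miR-106a-363 cluster and a preset list of miRNAs of the same seeds as related miRNAs. The comparison of position 3 with other miRNAs was added after the members' substitutions were seen. The study's qRT-PCR and predicted targets were not used here.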

Additional observations from a re-analysis of the deposited data

How the results depend on the processing

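In each of the 17 other fits, 0 members had an adjusted p under 0.05, with a smallest edgeR adjusted p of 0.71 in the fit with the substitution division as a covariate. The replicate numbers did not pair the libraries (r of same-numbered deviations 0.149, 0.340 and −0.541), and the replicate block called 0 members. Library size set to miRNA reads moved the median log2 fold change of all miRNAs from 0.02 to 0.20, and the covariate moved it to 0.24. Of 135 recomputed fold changes, 14 changed sign, each small beside its error. For miR-93-5p the log2 value was −0.038 with TMM factors and −0.0082 by the full mature sequence. For miR-19b-3p it was 0.030 by miRNA reads, 0.21 with the covariate and 0.12 with 1 substitution allowed. Leaving out each library in turn gave −0.49 to 0.13 for miR-19b-3p, −0.47 to 0.21 for miR-92a-3p, −0.078 to 0.37 for miR-106b-5p, −0.12 to 0.21 for miR-93-5p, −0.15 to 0.16 for miR-25-3p and −0.0022 to 0.53 for miR-25-5p. The libraries of higher substitution rate hold normal 2 as their only normal library, and the others hold NAFLD 1 as their only NAFLD library. Within those of higher rate, NAFLD minus normal was 0.48 for the miR-106b-25 sum and 0.50 for miR-25-3p to miR-93-5p. For miR-106b-5p to miR-17-5p it was 0.42 there and −0.44 within the others. Counting only full mature sequences made the difference in spread of miR-17-92 over 4 members 0.16. It also moved the level steps to 7.49 from miR-25-3p to miR-92a-3p, −1.63 from miR-92a-3p to miR-106b-5p, −0.91 from miR-106b-5p to miR-93-5p and 0.81 from miR-17-5p to miR-20a-5p, since it keeps 1.90% of the miR-92a-3p reads. By that count miR-92a-3p fell from position 2 to 7 among the 9 members. Depth limits miR-18a-5p and miR-19a-3p, with 28 and 10 reads in all.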
